A study of Homo sapiens with 6 samples.

Results

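The 10 immediate early genes FOS, FOSB, FOSL1, FOSL2, JUN, JUNB, JUND, EGR1, IER2 and DUSP1 were followed in 6 RNA sequencing libraries of HCT-116, an established human colorectal carcinoma cell line. They were taken as the rows whose gene symbol equals one of these names, which gave 10 of the 60546 gene identifiers measured, and all 10 passed the filter on low values together with 26526 other genes. Of the libraries, 3 carry the label GOLPH3 (HCT-116-PMSCV-GOLPH3, cells given a retroviral PMSCV construct for the Golgi phosphoprotein GOLPH3) and 3 carry the label Vector (HCT-116-PMSCV-Vector, the same cells with the empty construct). All 6 share the wild type genotype label, the growth medium with serum and lysis in Trizol. The libraries are called here by their labels: Golph3_1_P8, Golph3_2_P12, Golph3_3_P13, Vector_1_P12, Vector_2_P11 and Vector_3_P13. The labels do not explain the P number, and the methods of the study say only that the samples came from different generations of the cells. Nothing in the labels says whether a construct line was 1 clone or a pool, and p-values here measure the spread between these 6 libraries, which may be technical.

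Immediate early genes are switched on within minutes of a growth factor, serum or stress signal without the need for new protein, through mitogen-activated protein kinases that act on factors already bound at their promoters. FOS, FOSB, FOSL1 and FOSL2 encode the FOS family and JUN, JUNB and JUND the JUN family of basic leucine zipper proteins, which pair with each other as the transcription factor AP-1. EGR1 is a zinc finger transcription factor, IER2 a nuclear protein of the early response, and DUSP1 a phosphatase that removes the activating phosphates from mitogen-activated protein kinases. Most of these transcripts are very short-lived, while FOSL1 is known as a later member of the family that is itself an AP-1 target, and JUND as a member with a high basal level.

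The promoters of FOS, FOSB, JUN and EGR1 are shown because the libraries separated these genes: FOS and FOSB moved together, JUN had another pattern and EGR1 the smallest range on the deposited values. Each line gives the 250 bases before the RefSeq start, 5′ to 3′ on the gene's strand (GRCh38.p14), for FOS chr14:75278578-75278827 on the plus strand, for FOSB chr19:45467746-45467995 on the plus strand, for JUN chr1:58784048-58784297 on the minus strand and for EGR1 chr5:138465229-138465478 on the plus strand. Capitals mark matches to TGACG on either strand (CGTCA where it lies on the other strand), TATAAA, TGACATCA and the CArG box.
FOS: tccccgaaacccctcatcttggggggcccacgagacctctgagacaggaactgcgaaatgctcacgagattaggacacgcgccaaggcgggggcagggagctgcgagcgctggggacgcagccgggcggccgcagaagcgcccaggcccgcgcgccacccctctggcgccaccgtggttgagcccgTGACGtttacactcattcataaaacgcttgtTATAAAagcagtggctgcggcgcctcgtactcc
FOSB: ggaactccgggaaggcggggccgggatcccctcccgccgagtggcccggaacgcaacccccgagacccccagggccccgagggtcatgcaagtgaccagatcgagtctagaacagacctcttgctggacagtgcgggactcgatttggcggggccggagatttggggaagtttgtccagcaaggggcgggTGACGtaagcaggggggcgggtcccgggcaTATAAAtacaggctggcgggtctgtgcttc
JUN: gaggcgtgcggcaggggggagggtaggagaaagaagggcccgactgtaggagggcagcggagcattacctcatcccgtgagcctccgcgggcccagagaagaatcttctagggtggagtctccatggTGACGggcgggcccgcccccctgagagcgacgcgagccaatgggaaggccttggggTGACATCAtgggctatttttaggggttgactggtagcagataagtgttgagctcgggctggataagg
EGR1: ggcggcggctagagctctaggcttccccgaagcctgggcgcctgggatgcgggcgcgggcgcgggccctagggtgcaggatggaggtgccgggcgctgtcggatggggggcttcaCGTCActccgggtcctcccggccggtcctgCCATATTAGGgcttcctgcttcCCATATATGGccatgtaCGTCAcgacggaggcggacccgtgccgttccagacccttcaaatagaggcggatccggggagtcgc
FOS and FOSB held the same pair of matches in the same order, TGACG at 64 to 60 bases before the start of FOS and 60 to 56 before that of FOSB, and TATAAA at 33 to 28 and 30 to 25 bases before the start. The pair was not particular to them, as JUNB and DUSP1 also held TGACG upstream of TATAAA. There TGACG lay further from the start, at 137 to 133 bases in JUNB. JUN held TGACATCA at 67 to 60 bases and TGACG at 123 to 119 bases before its start. EGR1 held 2 CArG boxes, the binding sequence of serum response factor, at 105 to 96 and 83 to 74 bases before its start, and TGACG on the other strand at 135 to 131 and 66 to 62 bases.

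RefSeq promoters were found for 9 of the 10 members, FOSL1 being the one not matched. TGACG, the core of the cyclic AMP response element, was in all 9 of these windows and in 21.2% of 35116 promoters of the same length. TATAAA was in 4 of 9 (FOS, FOSB, JUNB and DUSP1) against 10.7% of promoters, and the full palindrome TGACGTCA, which contains TGACG on both strands, was in 2 of 9 (JUND and DUSP1) against 1.65%. TGACATCA, known from the JUN promoter, was in 1 of 9 against 2.37%, the CArG box in 1 of 9 against 1.16%, and the AP-1 motif TGANTCA in 0 of 9 against 6.57%. These counts describe letters in the windows and were not tested. Bases outside the windows were not searched, so a motif missing here may lie further upstream. The lack of a CArG box in the FOS window therefore does not show that FOS has none.

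The deposited values are reads divided by a size factor per library, called normalized reads here. The recovered reads were 15708846 to 21900764 per library, and mitochondrial genes took 4.41% to 9.97% of them. The GOLPH3 transcript itself was not higher in the libraries that carry its name, at 1629.5, 1272 and 1383 normalized reads in Golph3_1_P8, Golph3_2_P12 and Golph3_3_P13 against 1968, 1892 and 1472 in Vector_1_P12, Vector_2_P11 and Vector_3_P13 (log2 difference -0.31, SE 0.27, adjusted p = 0.609 in limma), so the groups below are named by label only. Of 12 tested colon epithelial markers 5 were called, all with GOLPH3 higher (KRT18, KRT19, JUP, CLDN3 and CLDN4), and of 10 mesenchymal markers 5, all with GOLPH3 lower (VIM, CDH2, ZEB1, ZEB2 and SPARC). The summed epithelial markers were 82983 to 163023 normalized reads there against 37836 to 48726 in the libraries labelled Vector, and the summed mesenchymal markers 1601 to 2012 against 4060.0 to 7256. Among the defining markers VIL1 was at 1.0 to 3.3 normalized reads in every library, and VIM was at 5.4 to 41.2 in the GOLPH3 libraries and 1653 to 3407 in the Vector libraries. The part of these marker differences in the results below was not tested.

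All 10 members were well expressed in every library. Their means over the 6 libraries ran from 1750.4 normalized reads for FOSL2 to 6941 for JUN, and the lowest single value was 329 for FOSB. Per kb of exon, which allows genes to be compared, JUND had the highest mean at 2589 normalized reads per kb and FOSL2 the lowest at 245. In their lowest library the members stood between percentile 65.4 (FOSB) and 98.5 (EGR1) of all genes tested for normalized reads per kb. The ratio of the highest to the lowest library was 28.6 for FOSB and 19.1 for FOS, 7.55 to 9.25 for FOSL1, JUN, JUNB and JUND, and 2.26 to 3.54 for EGR1, FOSL2, IER2 and DUSP1.

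**Figure D1:**
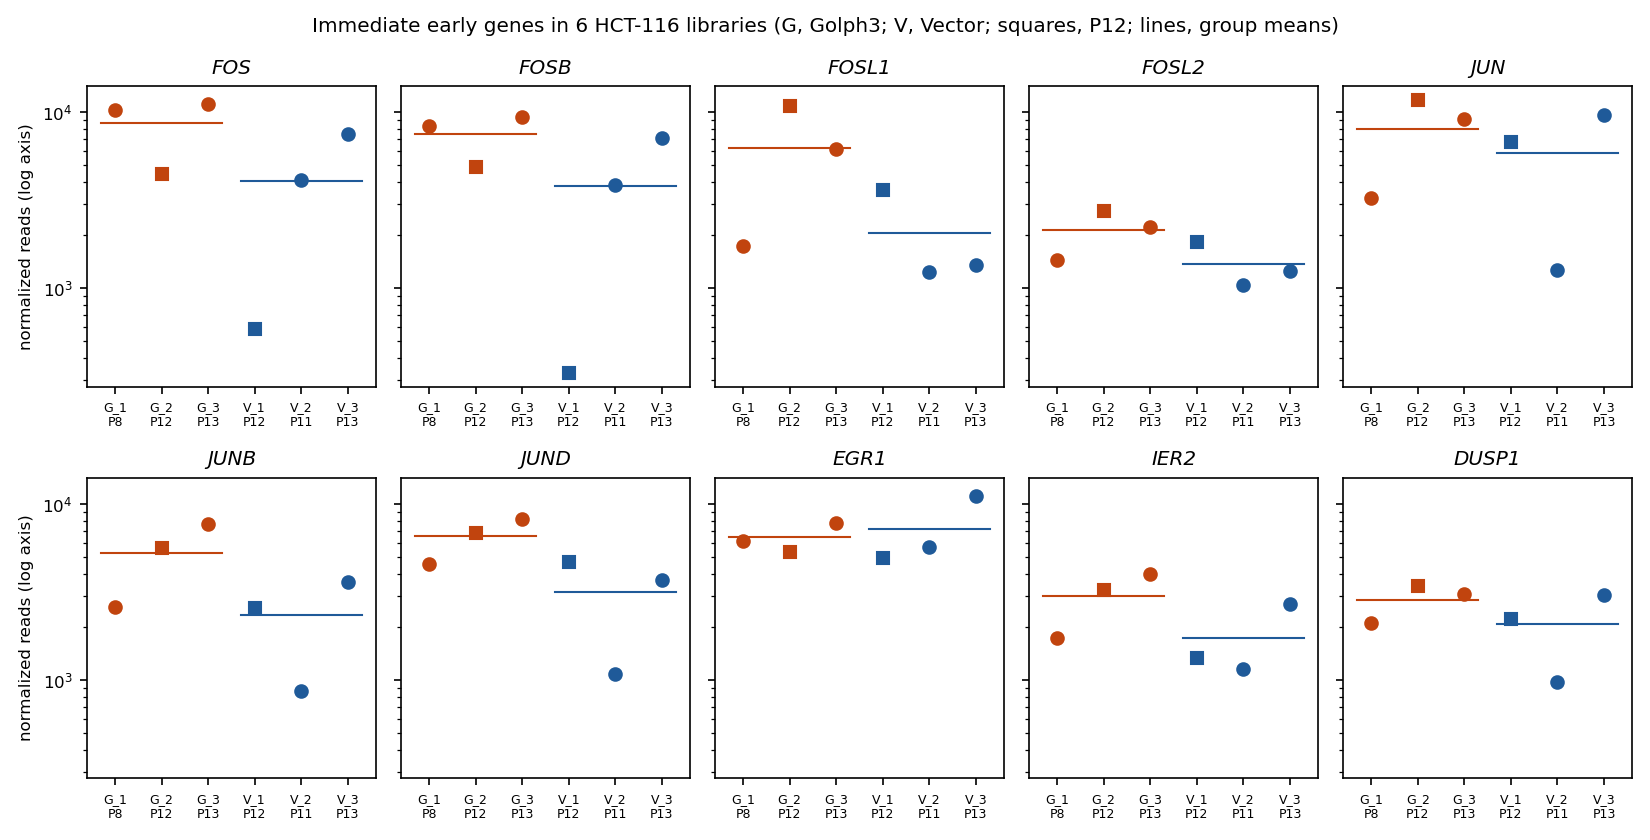
Normalized reads (log axis) of the 10 immediate early genes in each library, with GOLPH3 in red, Vector in blue, P12 libraries as squares and group means as lines. FOS and FOSB share a low point in Vector_1_P12 at 586 and 329, while JUN, JUNB and JUND have theirs in Vector_2_P11.

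FOS, the first identified member of the FOS family (GRCh38 chr14:75278774-75282230, plus strand), had 10206, 4477 and 11179 normalized reads in Golph3_1_P8, Golph3_2_P12 and Golph3_3_P13, and 586, 4097 and 7533 in Vector_1_P12, Vector_2_P11 and Vector_3_P13. Vector_1_P12 lay far below the other 5 libraries (in bulk RNA, fewer cells with the transcript and less of it per cell cannot be told apart), and the P12 library was the lowest within each group. FOSB, a paralog that is co-induced with FOS in many cells (chr19:45467995-45475179, plus strand), had 8323, 4896 and 9431 normalized reads in the same GOLPH3 libraries and 329, 3869 and 7138 in the Vector libraries. The 6 libraries stood in the same order as for FOS, with the P12 library again the lowest of each group. Among 11257 other genes with a mean of at least 100 normalized reads, 0 had a profile nearer to FOS than FOSB did, by the root mean square difference of log2 deviations over the 6 libraries (0.30 for FOSB).

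The nearest genes outside the list were ACACA, which encodes acetyl-CoA carboxylase, at 0.77, the lipid droplet protein gene PLIN4 at 0.78 and the kinase gene SIK1 at 0.78, so each was more than 2 times as far from FOS as FOSB. SIK1 has a near-identical copy in GRCh38, which makes its reads uncertain. ACACA had 947, 382 and 275 normalized reads in the GOLPH3 libraries and 54.6, 278 and 246 in the Vector libraries, again with its lowest value in Vector_1_P12. FOSB overlaps ERCC1 on the opposite strand, and the strand setting of the counting is not given in the sources used here. ERCC1 had 323 to 1568 normalized reads, and its lowest library was Vector_2_P11, not Vector_1_P12.

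FOSL1, which encodes FRA1, the FOS-related antigen linked to invasive growth (chr11:65892049-65900573, minus strand), had 1730.4, 10832 and 6136 normalized reads in the GOLPH3 libraries and 3600.4, 1231 and 1363 in the Vector libraries. The P12 library was here the highest of each group, opposite to FOS and FOSB. FOSL2, which encodes FRA2 (chr2:28392448-28417312, plus strand), had 1438, 2731 and 2212 normalized reads in the GOLPH3 libraries and 1826, 1039 and 1256 in the Vector libraries. It had the same library as its highest in each group as FOSL1, over a smaller range.

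Per kb of exon, FOS and FOSB together made up 80.6%, 27.0% and 59.1% of the summed FOS family in Golph3_1_P8, Golph3_2_P12 and Golph3_3_P13, and 9.99%, 71.1% and 80.1% in Vector_1_P12, Vector_2_P11 and Vector_3_P13. FOSL1 made up 15.9%, 68.5% and 37.3% in the same GOLPH3 libraries and 79.4%, 23.6% and 16.0% in the Vector libraries. In both P12 libraries FOSL1 was therefore the main FOS family transcript, and in the other 4 FOS was, though by only 39.6% against 37.3% in Golph3_3_P13. The summed family was 2403 to 8711 normalized reads per kb. JUND made up 29.9% to 51.0% of the JUN family in the 6 libraries, JUNB 24.2% to 37.6% and JUN 19.2% to 40.6%, with no such exchange of the main member between P12 and the rest. These are shares of normalized reads over annotated exon length, and length differences between the transcripts used in the cells would change them.

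**Figure D2:**
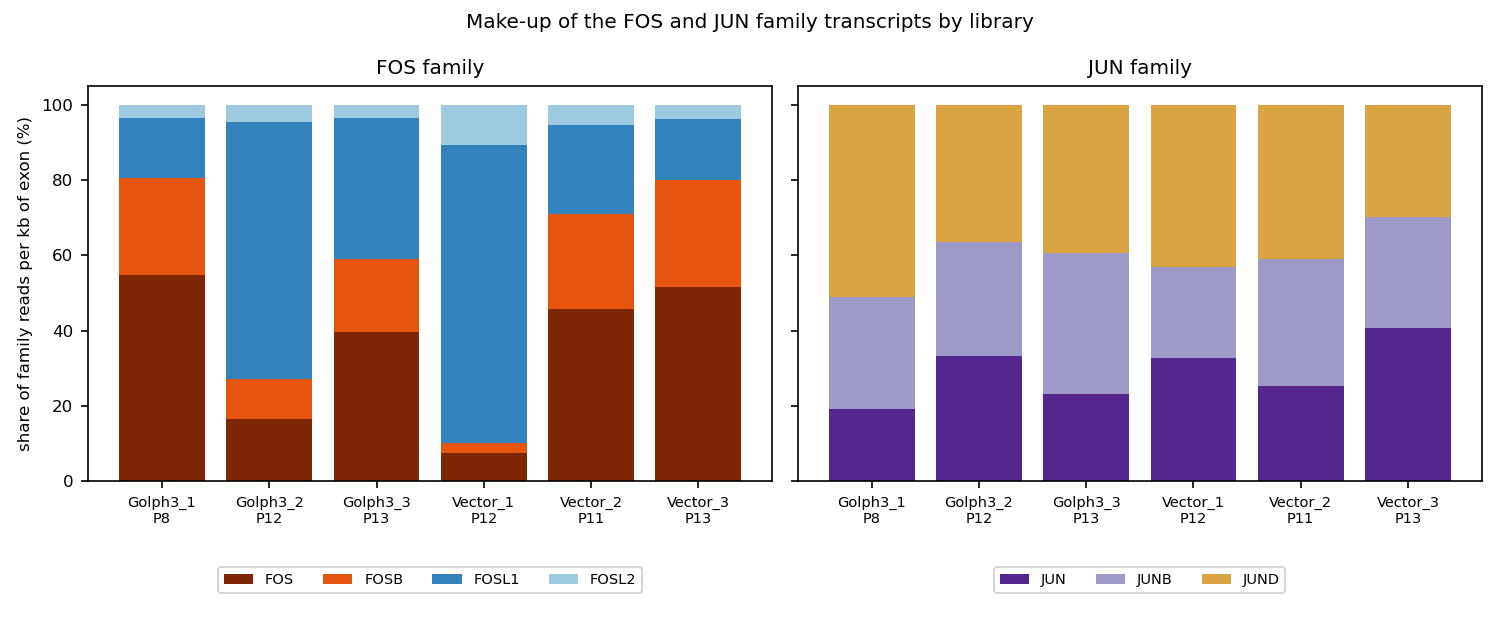
Share of each member in the summed normalized reads per kb of exon (%) of the FOS family (left) and the JUN family (right), 1 bar per library. FOSL1 takes 68.5% and 79.4% of the FOS family in the P12 libraries and 15.9% to 37.3% in the others.

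JUN, the founding member of the JUN family (chr1:58780788-58784327, minus strand), had 3248, 11755 and 9096 normalized reads in the GOLPH3 libraries and 6716, 1271 and 9561 in the Vector libraries. Vector_2_P11 was low and Golph3_1_P8 the next, and the groups overlapped. JUNB, which can restrain JUN activity as well as pair with FOS proteins (chr19:12791496-12793315, plus strand), had 2595, 5557 and 7640.0 normalized reads in the GOLPH3 libraries and 2559, 864 and 3564 in the Vector libraries. JUND (chr19:18279760-18281622, minus strand) had 4548, 6790 and 8168 normalized reads in the GOLPH3 libraries and 4652, 1082 and 3701 in the Vector libraries. Both were lowest in Vector_2_P11 and highest in Golph3_3_P13. JUNB overlaps HOOK2 on the opposite strand, which had 416 to 1935 normalized reads and the same lowest and highest library as JUNB.

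The genes nearest to JUN outside the list were TIMM13, a mitochondrial import chaperone gene, at 0.15, PPDPF at 0.21 and the kinase gene PKMYT1 at 0.24, all nearer than its closest family member JUNB at 0.48. TIMM13 had 704, 2156 and 1793 normalized reads in the GOLPH3 libraries and 1073, 269 and 1989 in the Vector libraries, with the same low Vector_2_P11 library as JUN. That library was the lowest for 30.1% of genes with a mean of at least 100 normalized reads. All these distances were taken on the deposited values.

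EGR1 (chr5:138465490-138469315, plus strand) had 6148, 5320.4 and 7799 normalized reads in the GOLPH3 libraries and 4876, 5686 and 11023 in the Vector libraries. On the deposited values it had the smallest ratio of highest to lowest library, and it was the only member whose P12 libraries did not overlap with the other 4, lying below them (P12 libraries lay below all others in 6.1% of genes tested and above them in 6.74%). Its nearest genes outside the list were the spectrin gene SPTB at 0.09, GMPPB at 0.10 and CABIN1 at 0.11. IER2 (chr19:13150415-13154908, plus strand) had 1723, 3221 and 3999.8 normalized reads in the GOLPH3 libraries and 1335, 1150.3 and 2685 in the Vector libraries. DUSP1 (chr5:172768090-172771195, minus strand) had 2090.0, 3411 and 3052 normalized reads in the GOLPH3 libraries and 2212, 964 and 3016 in the Vector libraries. Both were lowest in Vector_2_P11. FOSB, JUNB, JUND and IER2, 4 of the 10 members, lie on chromosome 19, where JUNB and IER2 are 357099 bases apart.

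The study compared the GOLPH3 and Vector lines, and limma and edgeR called none of the 10 members different between them. In limma on log2(normalized reads + 1), with Benjamini-Hochberg adjustment over 26536 genes and a threshold of 0.05, 0 of 10 members were called (5.07% of genes were, 253 with GOLPH3 higher, which is 0.953%, and 1093 with it lower). Before adjustment 4 members had p under 0.05 (FOSL1, FOS, JUNB and JUND, against 17.6% of genes), edgeR called 0, and DESeq2 called FOSL1 alone (log2 difference 1.59, adjusted p = 0.0473), where it called 8.68% of the genes to which it gave an adjusted p, 603 higher and 1388 lower. Without Golph3_1_P8 limma also called FOSL1 (2.16, adjusted p = 0.0131). A limma fit blocked on the P number, which leaves 1 residual degree of freedom, called 7 of the 10 members higher, and 22.9% of all genes. The log2 difference was positive for 9 members and negative for EGR1, with a median of 1.03 against 0.02 over all genes.

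FOSB had the largest log2 difference between the groups, 1.80 (SE 0.84, adjusted p = 0.297), with means of 7550 ± 2364 and 3779 ± 3405 normalized reads (SD, n = 3 each). FOS followed with 1.61 (SE 0.73, adjusted p = 0.283) and means of 8621 ± 3621 and 4072 ± 3474. FOSL1 had 1.42 (SE 0.59, adjusted p = 0.234) and means of 6233 ± 4552 and 2065 ± 1331. For FOSL1 the larger SD exceeded the difference between the means, and for FOSB and FOS it came near it. JUND had the smallest adjusted p, with a log2 difference of 1.25 (SE 0.48, adjusted p = 0.187), followed by JUNB with 1.27 (SE 0.51, adjusted p = 0.217). The remaining 4 with a positive difference lay between 0.59 (DUSP1) and 0.81 (IER2), with adjusted p of 0.323 to 0.647. EGR1 had -0.09 (SE 0.34, adjusted p = 0.926), and the 95% confidence interval of its log2 difference ran from -0.84 to 0.66.

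The values of the groups overlapped for all 10 members, where 9.2% of genes did not overlap with GOLPH3 higher and 12.8% with GOLPH3 lower. In the exact two-sided permutation test of the normalized reads, 3 against 3 libraries, the smallest p of a member was 0.2, and this design cannot go below 0.1. Each P number with a library in both groups allowed a comparison of 1 against 1 library. On the deposited values at P12, the GOLPH3 library was above the Vector library for all 10 members. The log2 differences ran from 0.13 (EGR1) to 3.89 (FOSB) with a median of 0.96, against 0.00025 over all genes. At P13 the GOLPH3 library was above for 8 of 10, from -0.50 (EGR1) to 2.17 (FOSL1). The median there was 0.57, against -0.01 over all genes. FOS differed by 2.93 at P12 and 0.57 at P13, and FOSB by 3.89 and 0.40, so that both differed more in the P12 pair. FOSL1 differed by 1.59 and 2.17. These pairs have no replicates, and the share of all genes in each direction is not given. After the centring by GC content described below, JUND and EGR1 were no longer above at P12, nor DUSP1 at P13.

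The P12 libraries were compared with the other 4 in a limma fit that keeps the group as a term. This comparison was chosen with earlier results of these libraries known, and its p-values are given as descriptions. FOS was lower in P12 by a log2 difference of -2.25 (SE 0.44, adjusted p = 0.216), FOSB by -2.42 (SE 0.58, adjusted p = 0.344), and FOSL1 higher by 1.6 (SE 0.44, adjusted p = 0.423). In this fit 0 of 10 members and 0 of 26536 genes (0.0%) were called. Before adjustment, p was under 0.05 for 3 members and for 1920 genes (7.24%). DESeq2 called 200 genes (1.26% of those with an adjusted p), among them FOS (-2.16, adjusted p = 0.00107) and FOSB (-2.14, adjusted p = 0.0149) and no other member, and edgeR called 0. The other 7 members had log2 differences of -0.54 (EGR1) to 1.03 (JUN).

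**Figure D3:**
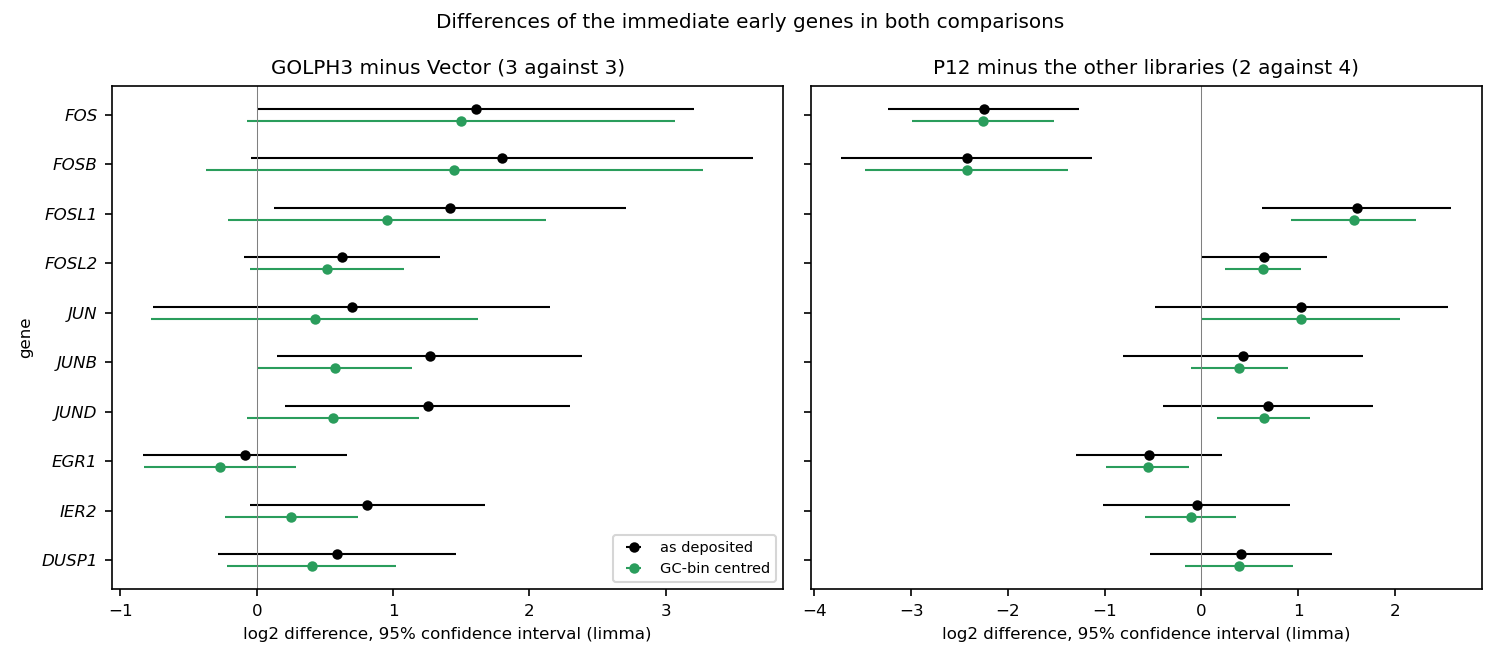
Log2 differences (points) with 95% confidence intervals (lines) from limma for GOLPH3 minus Vector (left) and P12 minus the other libraries (right), as deposited in black and after GC-bin centring in green. FOS and FOSB lie at -2.25 and -2.42 and FOSL1 at 1.6 in the P12 comparison as deposited, with shorter intervals after centring.

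The level of a gene in a library was related to the GC content of its transcript. Among genes with a mean of at least 100 normalized reads, the median log2 deviation from the gene's mean in Vector_2_P11 was 0.63 in the lowest of 8 GC bins (27.8% to 39.0%) and -0.998 in the highest (60.6% to 74.5%). Golph3_3_P13 had the opposite slope, from -0.61 to 0.76. In the highest bin the other 4 libraries lay between -0.24 (Vector_1_P12) and 0.34 (Golph3_2_P12). The members are GC-rich, from 52.6% (FOS) to 69.7% (JUND). In Vector_2_P11, 7 of 10 members had their lowest value (30.1% of genes did), and FOS, FOSB and EGR1 had theirs in Vector_1_P12 (7.14% of genes did). Golph3_3_P13 held the highest value of 5 members, Golph3_2_P12 of 4 and Vector_3_P13 of 1.

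**Figure D4:**
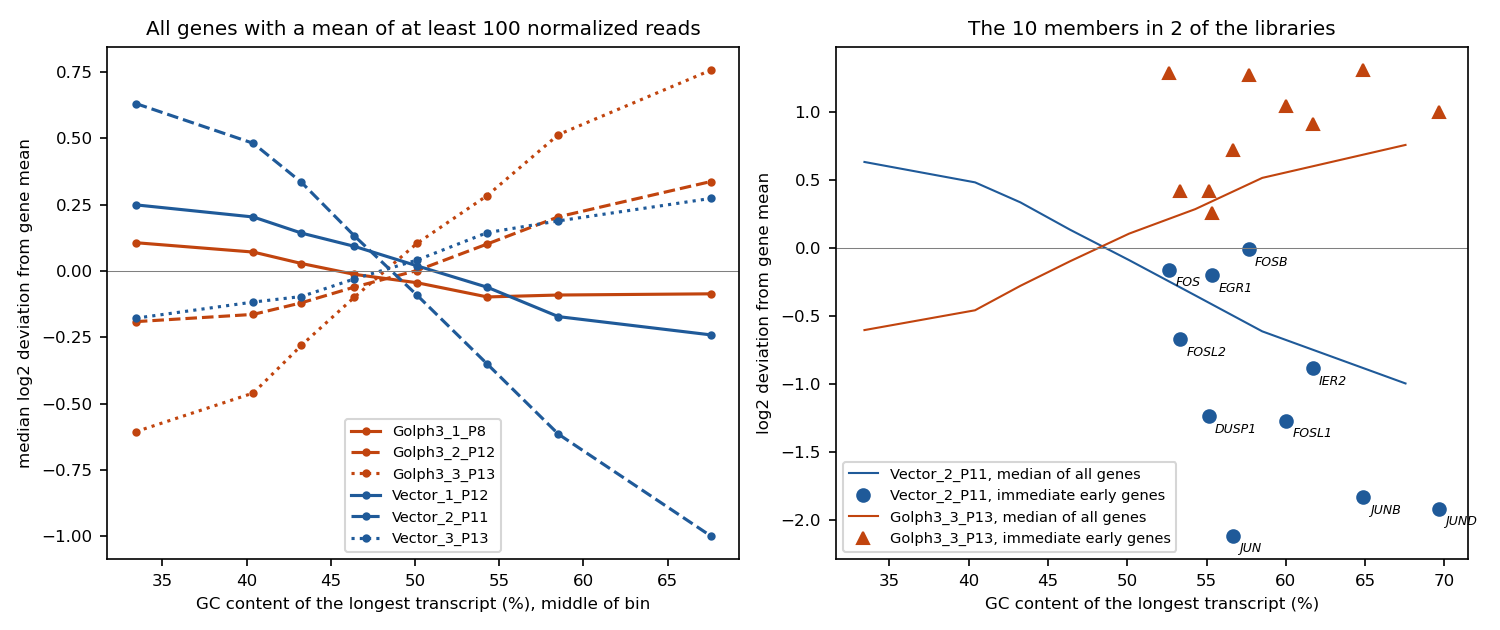
Left, median log2 deviation from the gene mean in 8 bins of transcript GC content (%) for each library. Right, the deviations of the 10 members in Vector_2_P11 (circles) and Golph3_3_P13 (triangles) against their GC content, with the medians of all genes as lines. JUN, JUNB and JUND lie below the Vector_2_P11 line, at -2.12, -1.84 and -1.92.

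The log2 values were therefore also centred on the median of each library within 20 bins of GC content, an alternative added after the values were seen. The deviation of IER2 in Vector_2_P11 went from -0.88 to -0.01, that of JUNB from -1.84 to -0.73 and that of JUND from -1.92 to -0.82. JUN kept most of its own, from -2.12 to -1.67. The deviation of FOS in Vector_1_P12 was -2.97 before and -2.92 after, and that of FOSB -3.56 and -3.40. After centring, 4 members had their lowest value in Vector_2_P11 (17.8% of genes did). IER2 then had a smaller range than EGR1, from -0.46 to 0.31 against -0.38 to 0.60. Whether GC content, or something that goes with it, caused the low values was not tested.

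**Figure D5:**
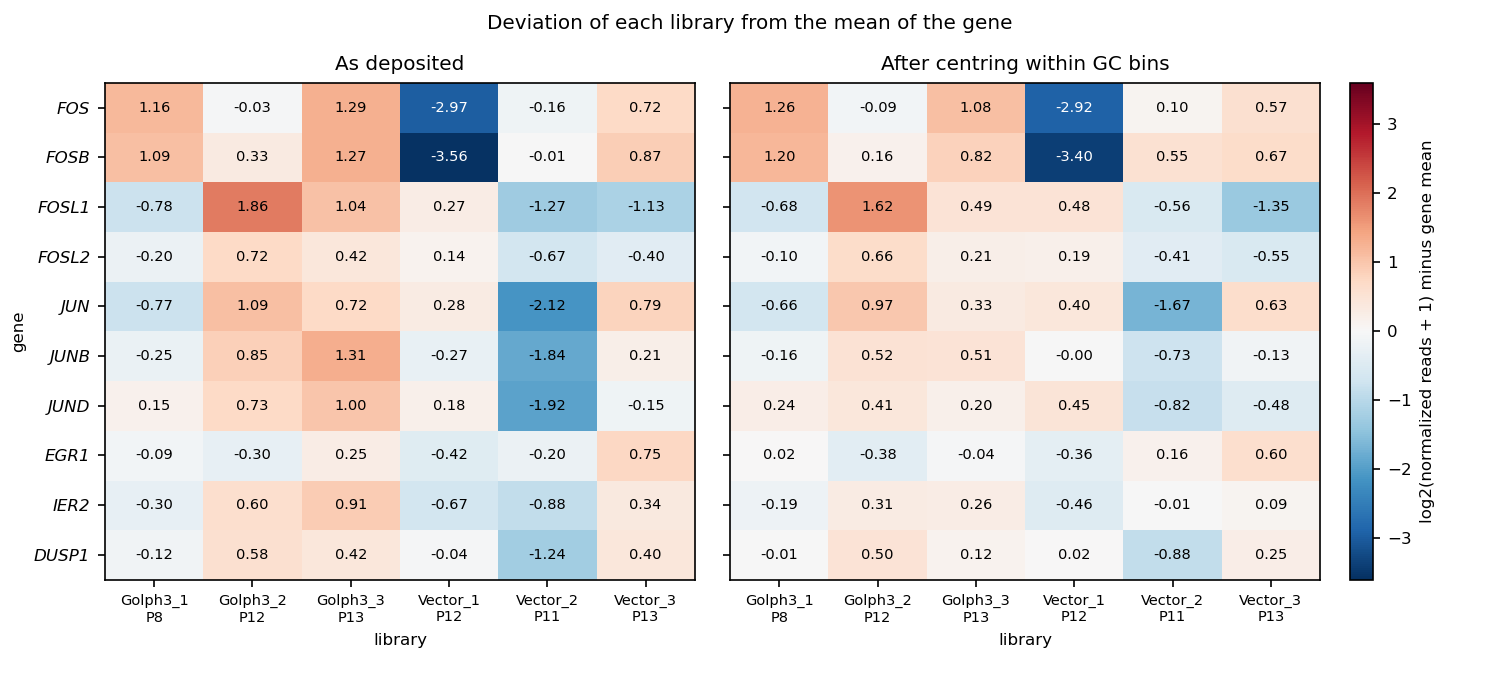
Log2(normalized reads + 1) of each member (rows) in each library (columns) minus the mean of the gene, as deposited (left) and after centring within GC bins (right). The low values of FOS and FOSB in Vector_1_P12 stay at -2.92 and -3.40 after centring, and that of IER2 in Vector_2_P11 goes to -0.01.

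Between the groups, 0 of 10 members were called after centring (6.21% of 25890 genes were), and the median log2 difference of the members went from 1.03 to 0.54, against 0.06 over all genes. JUND went from 1.25 to 0.56, JUNB from 1.27 to 0.58 and IER2 from 0.81 to 0.25, while FOS went from 1.61 to 1.50. In the pairs of the same P number, some directions turned after centring. At P12 the centred deviation of JUND was 0.41 in Golph3_2_P12 and 0.45 in Vector_1_P12, and that of EGR1 -0.38 and -0.36. At P13 that of DUSP1 was 0.12 in Golph3_3_P13 and 0.25 in Vector_3_P13. The other members kept their direction in both pairs. Between P12 and the other libraries, 455 genes (1.76%) were called after centring, 313 higher and 142 lower. FOS fell in the P12 libraries by 2.26 on the log2 scale (SE 0.34, adjusted p = 0.00859) and FOSB fell by 2.43 (SE 0.48, adjusted p = 0.0272), and FOSL1 rose by 1.57 (SE 0.30, adjusted p = 0.0217). The other 7 members were not called, and FOSL2 had the smallest adjusted p of these (0.64, adjusted p = 0.107). By library and on the deposited values, FOS minus the mean of the other libraries of its group was -1.25 for Golph3_2_P12 and -3.24 for Vector_1_P12 on the log2 scale. For FOSB these differences were -0.86 and -3.99, and for FOSL1 1.73 and 1.47.

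Leaving out either P12 library leaves the P12 arm with a single library, so only the log2 differences after centring are given. Without Vector_1_P12 they were -1.25 for FOS, -0.84 for FOSB and 1.72 for FOSL1. Without Golph3_2_P12 they were -3.24 for FOS, -4.00 for FOSB and 1.41 for FOSL1. The difference between the groups in the P12 effect was tested as an interaction on the deposited values in limma. It was 1.99 for FOS and 3.14 for FOSB (adjusted p = 1.00 for both), and 0 genes were called. Before adjustment, p was under 0.05 for these 2 members and for 297 genes (1.12%).

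Of 44 other immediate early genes fixed as a list, all tested, limma called 3 (5.07% of all genes were called), each with higher values under the GOLPH3 label, and the median log2 difference was 0.79. They were ZFP36, a protein that promotes decay of unstable messenger RNAs (1.68, SE 0.39, adjusted p = 0.0264), PLK3, a stress-responsive kinase (1.55, SE 0.40, adjusted p = 0.0441), and KLF2, a zinc finger transcription factor (2.05, SE 0.54, adjusted p = 0.0495). ZFP36 had 2709, 5703 and 5312 normalized reads in the GOLPH3 libraries and 1826, 803 and 1712 in the Vector libraries, without overlap. Of the 44, 23 were lowest in Vector_2_P11, as were 7 of the 10 members and 30.1% of genes with a mean of at least 100 normalized reads, and after GC-bin centring ZFP36 and ZFP36L1 were the 2 called, both higher.

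In the P12 comparison 0 of the 44 were called on the deposited values and 22 had p under 0.05 before adjustment. After GC-bin centring 12 were called higher and 2 lower, against 1.21% and 0.548% of all genes. The lower ones were the orphan nuclear receptor genes NR4A1 (-1.79, adjusted p = 0.0149) and NR4A2 (-2.16, adjusted p = 0.00807). NR4A2 had 3936, 438 and 1452 normalized reads in the GOLPH3 libraries and 364, 1486 and 1119 in the Vector libraries, with both P12 libraries below the other 4. Among the 12 higher ones was the growth arrest gene BTG1 (1.94, adjusted p = 0.0366), one of those the naming rule selects. The stress-induced factor ATF3 (1.52, adjusted p = 0.0378), MYC (0.91, adjusted p = 0.0309) and the growth factor gene HBEGF (2.13, adjusted p = 0.00807) were also among them and are named here after their values were seen. ATF3 had 2719, 8660.0 and 3902 normalized reads in the GOLPH3 libraries and 7463, 1489.9 and 3678 in the Vector libraries, the reverse of NR4A2.

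Other genes of the pathway were counted from fixed lists, with the number called in limma on the deposited values given first. At 5.07% of all genes called, single calls in lists of this size are near what all genes show. Among 13 tested AP-1 partners of the basic leucine zipper class, 1 was called and had its lower values under the GOLPH3 label. This was MAF, at 0 reads in all 3 GOLPH3 libraries and 61.3 to 399.9 normalized reads in the Vector libraries. Among 29 upstream kinases and factors, the kinase gene MAP2K6 was the 1 called, also lower, at 0.0 to 2.1 normalized reads against 58.1 to 208.5. Among 11 phosphatases of the DUSP family other than DUSP1, DUSP6, which acts on ERK kinases, was the 1 called and was higher (1.24, SE 0.30, adjusted p = 0.0350). Its values were 1928, 2207 and 1919 normalized reads in the GOLPH3 libraries and 1221, 788 and 646 in the Vector libraries, without overlap. Among 12 AP-1 target genes LIF, a cytokine of the interleukin-6 family, was the 1 called and was higher (2.18, SE 0.39, adjusted p = 0.00522). LIF had 1842, 5758 and 3403 normalized reads in the GOLPH3 libraries and 905, 559 and 766 in the Vector libraries.

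In the P12 comparison limma and edgeR called 0 genes of the related lists on the deposited values and DESeq2 called 14. After GC-bin centring limma called 24 of them, and 0 when either P12 library was left out. After GC-bin centring the ERK phosphatase gene DUSP5 rose by 2.59 on the log2 scale (adjusted p = 0.00238), and it was the only one of the 11 DUSP genes called. DUSP5 had 3625, 34221 and 10906 normalized reads in the GOLPH3 libraries and 16231, 1812 and 3228 in the Vector libraries, so that both P12 libraries lay above the other 4. Of the 12 AP-1 target genes 3 rose and 0 fell, namely the urokinase gene PLAU (2.19, adjusted p = 0.00456), its receptor gene PLAUR (1.55, adjusted p = 0.00807) and the chemokine gene CXCL8 (2.25, adjusted p = 0.0171). Of the AP-1 partners CREB5 rose (2.06, adjusted p = 0.0370) and of the upstream kinases MAP2K3 (1.03, adjusted p = 0.0410), with no other call in either list.

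Of 10 tested genes of handling and heat stress, 0 were called between the groups and 0 in the P12 comparison on the deposited values. After GC-bin centring 4 of the 10 were called in the P12 libraries, DDIT3 higher and HSPA8, HSPH1 and HSPE1 lower, against 1.76% of all genes. The chaperone gene HSPA8 had 34853, 6889 and 38727 normalized reads in the GOLPH3 libraries and 5454, 53929.8 and 17592 in the Vector libraries, a log2 difference of -2.49 for P12 (adjusted p = 0.00474). HSPA8 was thus below the other 4 libraries in both P12 libraries. On the deposited values FOS was below them only in Vector_1_P12, as its 4477 in Golph3_2_P12 exceeded its 4097 in Vector_2_P11. After GC-bin centring FOS was below them in both P12 libraries. Its deviation was then -2.92 in Vector_1_P12 and -0.09 in Golph3_2_P12, against 0.10 in Vector_2_P11, the next lowest. HSPA8 was highest in Vector_2_P11, where FOS was not. The summed list was 62444 and 72208 normalized reads in the P12 libraries and 89178 to 194902 in the other 4. The part of handling in the P12 differences of FOS, FOSB and FOSL1 was not tested.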

How the data were processed

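The deposited table holds 1 value per gene and library, a signal that the authors made from reads and normalized by library. In each library 100% of the values above 0 were multiples of 1 step (0.825 to 1.1, tolerance 0.01 reads), so they are reads divided by a size factor, without correction for length. The submitters' processing notes name fastp 0.20.0, HISAT2 2.1.0, Cufflinks, featureCounts 1.6.1, DESeq2 and GRCh38, with no role or order, and the annotation and strand setting are not given in the sources used here. Of 60546 identifiers (60590 rows, 44 second rows added), 96.4% were in GENCODE 29, which gave coordinates, exon lengths and GC content.

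The 26536 genes that reached 1 normalized read in 3 or more libraries were tested with limma 3.58.1 (trend, R 4.3.3) on log2(value + 1), which understates changes of low genes, with Benjamini-Hochberg adjustment. DESeq2 1.42.0 and edgeR 4.0.16 were run on the recovered reads. GC-bin centring used the median of genes with a mean of at least 10 normalized reads in each of 20 bins. The fits were also run on simulated counts that held no relation to GC content. That run does not show how the fits behave on these libraries. The smallest chi-square per degree of freedom between libraries of a group was 65.3, so each was counted as a sample.

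The members, the lists and the P12 comparison were chosen with earlier results of these data known. The naming rule took all members, the 3 genes of each related list with the smallest p in either fit, and the 3 nearest genes to FOS, JUN and EGR1. Deviations of same-numbered libraries of the groups correlated at -0.23, -0.15 and 0.26, so the numbers were not taken as pairs. The 2 pairs with the same P number correlated at 0.256 and 0.259, too few to take the P number as a pairing, and the labels do not say what it marks. Golph3_1_P8 and Vector_2_P11, which share neither number, correlated at 0.331. Alternatives were other normalizations, filters, pseudocounts, tools and blocks, and leaving out each library. The leukocyte marker list is not reported here.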

Additional observations from a re-analysis of the deposited data

Results flagged for a closer look

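FOSL1 in the 4 libraries that are not P12 had 1 library far from the others. Golph3_3_P13 was at 6136 normalized reads, and Golph3_1_P8, Vector_2_P11 and Vector_3_P13 were at 1730.4, 1231 and 1363. Its gap to the nearest of the others was 0.898 of the range of the 4, above Dixon's 95% critical value for 4 samples. Chance passes this limit in about 1 of 20 groups, and no other member did in this group, the only one large enough to be examined.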

How the results depend on the processing

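Of 450 values of the members under alternatives, 402 kept the direction and the side of the threshold. Members called between GOLPH3 and Vector (0) became 1 with DESeq2, 0 to 1 when a library was left out (FOSL1 without Golph3_1_P8, 2.16, adjusted p = 0.0131) and 7 in a fit blocked on the P number, which leaves 1 residual degree of freedom and called 22.9% of all genes. The related lists, with 7 calls, had 4 with quantile normalization, 1 with a value of at least 1 required in every library, 3 with a pseudocount of 0.1, 16 with DESeq2, 62 when blocked on the P number, 12 with GC-bin centring and 3 to 15 when a library was left out (2 to 12 with GC-bin centring too, 11 without Golph3_1_P8 or Vector_1_P12). Members called between P12 and the rest (0) became 2 with DESeq2, 3 with GC-bin centring, 0 to 4 with GC-bin centring when a library was left out, and 8 with the replicate block, where 14.5% of all genes were called on 1 residual degree of freedom. The related lists in the P12 comparison, with 0 calls, had 14 with DESeq2, 60 with the replicate block, 0 to 4 when a library was left out, 24 with GC-bin centring and then 0 to 32 when a library was left out. The replicate block called 1081 genes between GOLPH3 and Vector, where 1346 were called without it, and 0 members. The cause of these shifts was not tested, beyond the fewer genes or libraries that some of them hold.

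Some signs turned when a library was left out. Between the groups EGR1 then ranged from -0.32 to 0.27 (0.04 without Golph3_2_P12 and 0.27 without Vector_3_P13), and JUN from -0.19 to 1.27 (-0.19 without Vector_2_P11, and -0.33 with GC-bin centring as well). In the P12 comparison IER2 ranged from -0.40 to 0.29, above 0 without Golph3_3_P13 (0.16), Vector_1_P12 (0.29, and 0.28 with GC-bin centring) or Vector_3_P13 (0.26), and was 0.56 with the replicate block, and JUNB ranged from -0.022 (without Vector_2_P11) to 0.85. The genes called between the groups numbered 405 with a value of at least 1 required in every library, 459 without Vector_1_P12 and 481 without Vector_3_P13. GC-bin centring and the interaction were added after the values were seen. A library left alone in its arm was assumed to vary like the others.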
